A study of Mus musculus with 6 samples.

Results

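Polycomb proteins are chromatin repressors that act in a pair of complexes, and 9 of their genes are described here: the chromodomain genes Cbx2, Cbx6, Cbx7 and Cbx8, the ring finger genes Bmi1, Ring1 and Rnf2, and the methyltransferase genes Ezh1 and Ezh2. They were chosen by name, with results of the same comparison already known, and each gene was to be represented by the probe set that carries its symbol alone and has the highest mean signal. Of the 9 genes, 8 could be measured in this way, out of 19938 genes in all, and each of the 8 has only 1 such probe set. The only probe set for Cbx6 also carries the symbols Npcd and Nptxr, so no value is assigned to Cbx6. Total RNA was measured on Affymetrix arrays, 3 from Dusp6 KO and 3 from Dusp6 WT cells. Both groups are mouse pre-B cells on a mixed C57Bl/6-SV129j background that were transformed with the fusion kinase BCR-ABL1, the oncogene of Ph+ acute lymphoblastic leukaemia, so the controls carry the oncogene too. Dusp6 encodes a phosphatase that inactivates the kinase ERK, and the comparison shows how transformed cells differ in their transcripts when it is missing. The labels give neither the ages of the mice nor the deleted part of Dusp6, and they do not say whether arrays of a genotype come from separate cultures, mice or clones, so standard errors and p-values reflect only how far these arrays spread, which may be technical in origin.

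Polycomb repressive complex 2 places methyl groups on histone H3 through Ezh1 or Ezh2. Canonical Polycomb repressive complex 1 reads that mark with the chromodomain of a Cbx protein, is held together by a Pcgf protein such as Bmi1, and attaches ubiquitin to histone H2A through Ring1 or Rnf2. Their best known target in lymphoid cells is Cdkn2a, whose transcripts encode the cell cycle inhibitor Ink4a and the p53 activator Arf, and loss of Bmi1, Cbx7 or Ezh2 is known to release it.

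Among the 8 measured genes, Cbx7 stood apart: its signal was 2.63-fold higher in Dusp6 KO than in Dusp6 WT cells, and Cdkn2a was 2.68-fold higher in the same arrays. Cbx8, Ezh1 and Ezh2 were higher by 1.11-fold to 1.18-fold and Bmi1 was 1.14-fold lower, each without overlap between the genotypes. Cbx2, Ring1 and Rnf2 overlapped. Because this contrast is part of how the genes were chosen, their differences are given as a description, with limma's standard error and no test. The genotypes did not overlap in 5 of the 8 genes, 4 with all knockout arrays higher and 1 with all lower, and over all genes tested 35.7% did not overlap (17.3% higher and 18.4% lower). Cbx7 alone passed 2-fold, which 1.29% of all genes did. The median log2 difference of the 8 genes, Dusp6 KO minus Dusp6 WT, was 0.075, against 0.0018 over all genes.

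**Figure D1:**
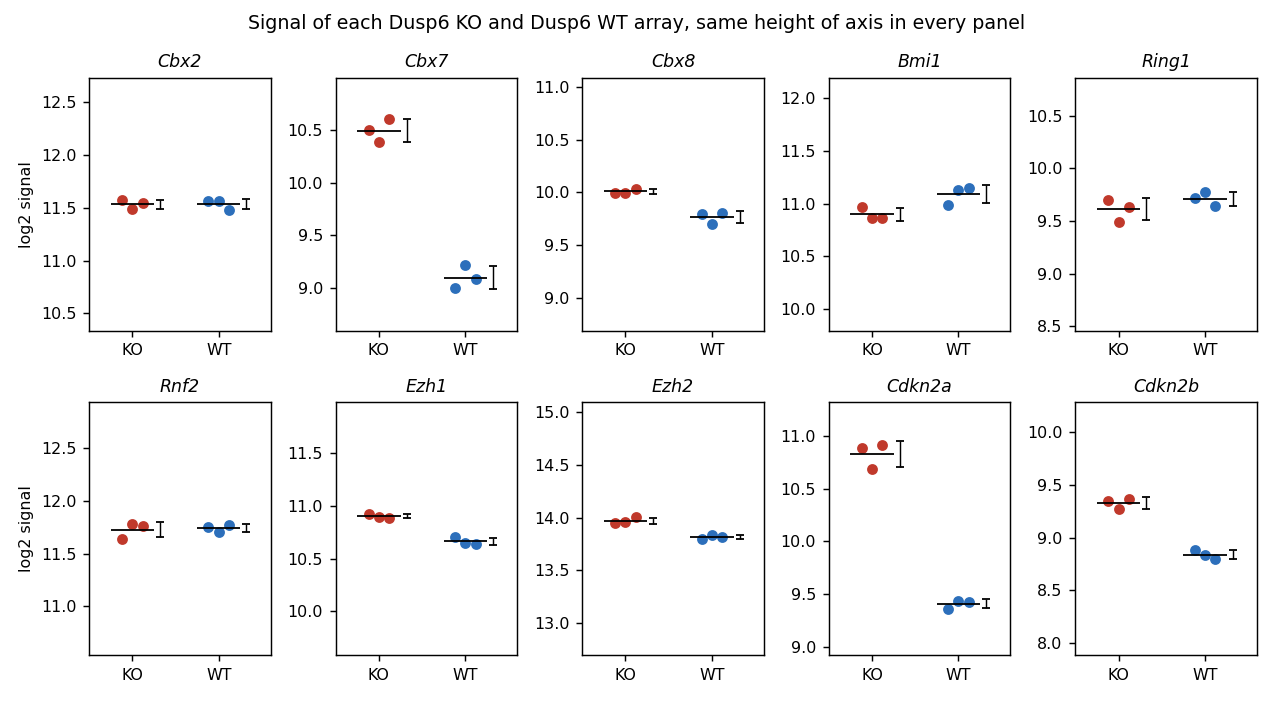
Log2 signal of the 8 measured Polycomb genes and of Cdkn2a and Cdkn2b in each array (points), with Dusp6 KO left and Dusp6 WT right in every panel; lines are means and bars are SD over 3 arrays. Every panel spans the same height on the log2 scale, so the gap between the genotypes in Cbx7 (1.39) can be set beside those in Cdkn2a (1.42) and Cbx8 (0.24).

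Over all probe sets, the correlation was 0.996 to 0.998 within a genotype and 0.987 to 0.989 between the genotypes. Dusp6 had log2 signals of 9.04, 9.06 and 9.15 in Dusp6 KO arrays, against 12.36, 12.46 and 12.49 in Dusp6 WT arrays. Markers of precursor B cells were bright: the mean log2 signal of 9 measured markers was 12.77 to 12.79 in Dusp6 KO and 12.98 to 13.03 in Dusp6 WT arrays, where the upper quartile of all probe sets was 10.45 to 10.49. Of these 9 markers, Rag1 rose and Dntt, Il7r and Vpreb1 fell, where 9.66% of all genes rose and 10.2% fell. Rag1 makes the recombinase with Rag2, Dntt adds nucleotides at immunoglobulin junctions, Il7r is a cytokine receptor chain and Vpreb1 is part of the surrogate light chain. Their differences were 0.20, -1.42, -0.31 and -0.27 (limma adjusted p = 0.027, 3.8e-08, 0.00084 and 0.016). Rag1 did not pass when knockout replicate 2 or 3 or wild-type replicate 1 or 3 was left out (adjusted p = 0.052 to 0.094), nor did Vpreb1 without knockout replicate 2 or 3 (0.061 and 0.055). Marker lists of other cell types had mean log2 signals near or below the array medians (8.38 to 8.42), with 9 myeloid markers at 7.58 in each Dusp6 KO array and 7.46 to 7.54 in Dusp6 WT arrays, and 6 T cell markers at 7.60 to 7.65 in Dusp6 KO and 7.55 to 7.58 in Dusp6 WT arrays. One marker rose in each of those lists, Lyz2 by 0.70 and Cd8b1 by 0.23 (limma adjusted p = 1.9e-05 and 0.0060). Of 3 erythroid and 6 stromal markers, 0 passed in limma, and 0 did at an unadjusted p under 0.05. The part of such cells in the results below was not tested.

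The chromodomain genes differed among themselves. Cbx7, a chromodomain subunit known to silence the Cdkn2a locus, had log2 signals of 10.49, 10.38 and 10.60 in Dusp6 KO arrays, against 8.997, 9.22 and 9.08 in Dusp6 WT arrays. The lowest knockout array lay 1.17 above the highest wild-type array on this scale. The group means were 10.49 ± 0.11 and 9.10 ± 0.11 (SD, n = 3 each), a log2 difference of 1.39 ± 0.070 (SE). In a bulk sample, more cells with a transcript and more of it in each cell cannot be told apart.

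Cbx8, a related chromodomain subunit, had log2 signals of 9.9997, 9.9989 and 10.04 in Dusp6 KO arrays, against 9.79, 9.70 and 9.81 in Dusp6 WT arrays, a difference of 0.24 ± 0.045 (SE). All knockout arrays were above all wild-type arrays, by a much smaller step than for Cbx7. Cbx2, the chromodomain gene next to Cbx8 on chromosome 11, had 11.57, 11.49 and 11.54 in Dusp6 KO arrays, against 11.56, 11.57 and 11.48 in Dusp6 WT arrays. The Cbx2 groups overlapped and their difference was -0.0035 ± 0.045 (SE). The probe set that Cbx6 shares with Npcd and Nptxr also overlapped, at 9.98, 9.89 and 9.9995 in Dusp6 KO arrays, against 9.98, 9.96 and 9.97 in Dusp6 WT arrays. Differences in the 3 heterochromatin protein genes that share the Cbx name without belonging to Polycomb, Cbx1, Cbx3 and Cbx5, were -0.062, 0.013 and -0.018, and none passed in limma (adjusted p = 0.40, 0.89 and 0.84, with 0 at an unadjusted p under 0.05). The sign of Cbx3 flipped with the mean of its probe sets and without 1 of some arrays, and that of Cbx5 flipped without knockout replicate 1.

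Bmi1, the Pcgf subunit whose loss is known to release Cdkn2a, had log2 signals of 10.97, 10.86 and 10.86 in Dusp6 KO arrays, against 10.99, 11.13 and 11.15 in Dusp6 WT arrays. Its difference was -0.19 ± 0.056 (SE), and its highest knockout value lay only 0.021 below its lowest wild-type value. The ubiquitin ligase genes overlapped. Ring1 had 9.70, 9.49 and 9.64 in Dusp6 KO arrays, against 9.72, 9.77 and 9.64 in Dusp6 WT arrays (difference -0.10 ± 0.061, SE), and Rnf2, its paralog, had 11.64, 11.78 and 11.76 in Dusp6 KO arrays, against 11.76, 11.70 and 11.77 in Dusp6 WT arrays (difference -0.015 ± 0.050, SE). Without knockout replicate 2 the difference in Ring1 was -0.042, and without knockout replicate 1 that in Rnf2 was 0.027.

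Both methyltransferase genes were higher in every knockout array. Ezh1, the form known for resting cells, had log2 signals of 10.92, 10.90 and 10.88 in Dusp6 KO arrays, against 10.70, 10.65 and 10.64 in Dusp6 WT arrays, a difference of 0.24 ± 0.041 (SE). Ezh2, the form known for dividing cells, had 13.95, 13.96 and 14.00 in Dusp6 KO arrays, against 13.80, 13.84 and 13.82 in Dusp6 WT arrays, a difference of 0.15 ± 0.041 (SE). Ezh2 is a known E2F target. E2f1 itself and a list of proliferation genes were lower in the same cells, and the part of E2F in the Ezh2 difference was not tested. E2f1 fell by 0.36 (limma adjusted p = 0.00021). Of 24 measured proliferation genes, 12 fell and 0 rose, where 10.2% of all genes fell and 9.66% rose, with a median difference of -0.14. Those that fell most were Tyms and Uhrf1, which serve DNA synthesis and the upkeep of DNA methylation, Ccne1, a G1 cyclin, and Mcm5, a subunit of the replicative helicase (differences of -0.33, -0.23, -0.23 and -0.22, with limma adjusted p = 0.00074, 0.0070, 0.0041 and 0.0035). All 24 proliferation genes were bright, with mean log2 signals of 10.70 or more. When the 9969 genes at or above the median of mean signal were fitted alone, 2206 of them fell and 1769 rose.

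Cdkn2a had log2 signals of 10.88, 10.69 and 10.91 in Dusp6 KO arrays, against 9.36, 9.44 and 9.43 in Dusp6 WT arrays. The difference of 1.42 ± 0.062 (SE) passed in limma (adjusted p = 3.2e-07), a rise that was already known when the genes were chosen. Its neighbour Cdkn2b, which encodes the inhibitor Ink4b and is also known as a Polycomb target, rose by 0.49 ± 0.047 (SE, adjusted p = 6.0e-05). The next measured gene on the other side, Mtap, an enzyme of methionine salvage, rose by 0.30 (adjusted p = 0.00087). The other 8 of 10 neighbours of Cdkn2a on chromosome 4 did not pass, where 19.8% of all genes passed in either direction. One Cdkn2a probe set was measured, and it does not tell the Ink4a transcript from the Arf transcript here. So Cdkn2a and Cbx7 were both higher in cells without Dusp6, while Bmi1 was slightly lower and Ezh2 slightly higher.

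The profile most like that of Cbx7 over the 6 arrays was that of Cdkn2a, first among 19937 other genes. Likeness was the root mean square distance between profiles after each gene's own mean was subtracted, which for Cdkn2a was 0.053 on the log2 scale. In Cbx7, Cdkn2a and Elovl7, replicate 3 was the highest and replicate 2 the lowest knockout array. Among wild-type arrays, replicate 2 was the highest and replicate 1 the lowest in these genes. Replicate 2 was the lowest knockout and the highest wild-type array in all 5 genes nearest to Cbx7. These 5 genes were picked for likeness over the same 6 arrays, so a shared order follows in part from that choice. Over all genes, the deviations of knockout and wild-type replicate 2 from their group means correlated at -0.12. Elovl7, a fatty acid elongase gene, Tlr9, a sensor of DNA, Cnn2, a calponin, and Slc2a6, a hexose transporter, came next at 0.055, 0.060, 0.076 and 0.079. This distance depends mostly on the size of the difference between the genotypes. Leaving out genes with provisional symbols, 14 genes lay within 0.1 of Cbx7. Around Bmi1, which differed little, 4173 genes lay within 0.1 on the same count. The nearest of them were Plagl1, Mitf, Klf12, Prickle2 and Fam20c, at 0.015 to 0.028.

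**Figure D2:**
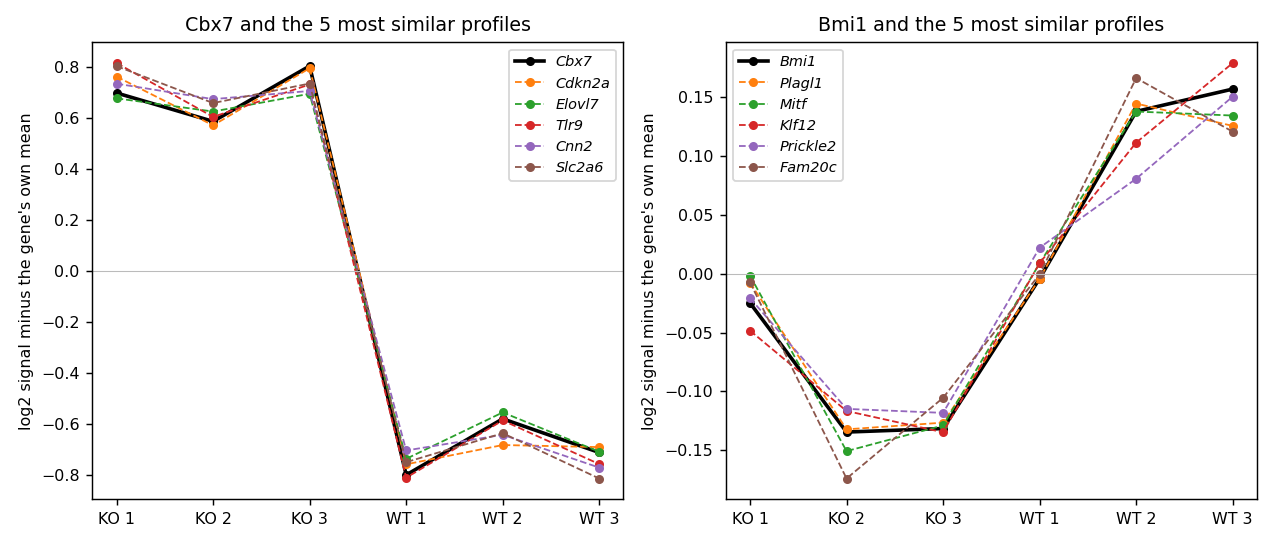
Log2 signal minus each gene's own mean over the 6 arrays, for Cbx7 (left panel, black) and Bmi1 (right panel, black) with the 5 genes of most similar profile (dashed). Lines join arrays only to guide the eye; the vertical scales of the panels differ, and Cdkn2a follows Cbx7 at a distance of 0.053.

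The start regions of Cbx7 and Cdkn2a are shown because Cbx7 had the largest difference of the 8 measured genes and Cdkn2a had the profile nearest to it. Each window runs from 250 bases before to 50 after a transcript start (RefSeq, GRCm38.p6), 5′ to 3′ on the gene's own strand, with CG dinucleotides, the sites of DNA methylation and a known feature of Polycomb-bound promoters, in capitals. Cdkn2a has a window at each of its starts, of which the distal one is known as that of Arf and the proximal one as that of Ink4a.
Cbx7, chr15:79932597-79932896, minus strand: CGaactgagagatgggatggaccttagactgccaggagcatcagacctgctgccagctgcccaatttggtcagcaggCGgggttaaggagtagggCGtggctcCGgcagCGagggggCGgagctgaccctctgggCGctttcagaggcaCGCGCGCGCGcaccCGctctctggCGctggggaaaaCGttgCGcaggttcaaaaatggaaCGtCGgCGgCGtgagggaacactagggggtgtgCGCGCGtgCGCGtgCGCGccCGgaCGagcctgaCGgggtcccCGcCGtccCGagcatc
Cdkn2a distal, chr4:89294570-89294869, minus strand: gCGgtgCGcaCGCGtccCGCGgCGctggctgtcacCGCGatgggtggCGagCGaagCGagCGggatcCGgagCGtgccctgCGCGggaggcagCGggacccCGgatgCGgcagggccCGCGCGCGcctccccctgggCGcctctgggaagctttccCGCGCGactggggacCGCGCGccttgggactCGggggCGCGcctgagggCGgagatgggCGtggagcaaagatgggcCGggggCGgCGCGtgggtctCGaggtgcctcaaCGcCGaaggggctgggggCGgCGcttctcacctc
Cdkn2a proximal, chr4:89282143-89282442, minus strand: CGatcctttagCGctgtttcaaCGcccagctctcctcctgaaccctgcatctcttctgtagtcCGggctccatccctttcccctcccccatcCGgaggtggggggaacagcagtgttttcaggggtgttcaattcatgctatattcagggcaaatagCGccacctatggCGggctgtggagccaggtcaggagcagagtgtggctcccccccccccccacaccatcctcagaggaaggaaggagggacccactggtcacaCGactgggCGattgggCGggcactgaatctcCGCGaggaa
The Cbx7 window holds 33 CG dinucleotides, the distal Cdkn2a window 45 and the proximal one 12, against a median of 7 over 32851 windows of this length. Windows were found for 8 of the 9 genes, and the others held 23 to 37, so a high number was shared by genes with and without a difference. Ring1, which overlapped between the genotypes, had 37.

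Ezh2 is shown because it was higher while E2f1 was lower. The capitals mark its match to an E2F motif.
Ezh2, chr6:47594981-47595280, minus strand: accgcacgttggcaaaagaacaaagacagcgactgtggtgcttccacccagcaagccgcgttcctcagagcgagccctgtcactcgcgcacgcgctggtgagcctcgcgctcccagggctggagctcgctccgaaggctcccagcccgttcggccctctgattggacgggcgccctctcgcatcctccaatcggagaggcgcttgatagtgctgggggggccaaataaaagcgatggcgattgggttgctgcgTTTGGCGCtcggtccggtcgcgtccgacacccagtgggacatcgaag
The letters searched on both strands were TTTGGCGC, TTTCGCGC, TTTCCCGC and TTTGCCGC. Of all windows, 2.26% held 1 of them. Ezh2 matched TTTGGCGC at position 4 counted from the start, the distal Cdkn2a window matched TTTCCCGC at position -99, and the proximal Cdkn2a window and those of the other 7 genes held none of these letters. A search for CCGGAAG, the letters bound by ERK-responsive ETS factors, found it in 8.86% of all windows and in none of those of these genes or Cdkn2a. None of these motifs overlaps another in the windows named.

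The other subunits of the complexes were mostly lower where they passed. Of 27 measured Polycomb genes beyond the 8, 10 fell and 2 rose in limma, where 10.2% of all genes fell, 9.66% rose and 19.8% passed in either direction, with a median difference of -0.047. Without wild-type replicate 1, 6 of the 27 fell and 1 rose, where 1512 of all 19938 genes fell and 1491 rose. Removal of genes below the median of mean signal left 25 of the 27. In that fit 9 of the 25 fell and 2 rose, where 2206 of all 9969 genes fell and 1769 rose. Among genes of canonical complex 1 the largest decreases were in Scmh1, a sex comb on midleg homolog, and Phc1, a polyhomeotic subunit. Scmh1 had log2 signals of 10.54, 10.54 and 10.57 in Dusp6 KO arrays, against 11.15, 11.12 and 11.16 in Dusp6 WT arrays, and fell by 0.60 ± 0.040 (SE, adjusted p = 5.3e-06). Phc1 had 10.45, 10.23 and 10.39 in Dusp6 KO arrays, against 10.89, 10.84 and 10.79 in Dusp6 WT arrays, and fell by 0.48 ± 0.061 (SE, adjusted p = 0.00037). Neither gene overlapped between the genotypes.

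Of 5 measured genes of canonical complex 1 other than Cbx, Bmi1, Ring1 and Rnf2, 4 fell, where 10.2% of all genes fell. The other 2 that fell were Pcgf2, the close relative of Bmi1 (-0.30, adjusted p = 0.0051), and Phc3 (-0.20, adjusted p = 0.033), and Phc2 differed by -0.019 (adjusted p = 0.86). The call of Phc3 rests on the choice of probe set. A second probe set for Phc3 had 9.81, 10.18 and 10.12 in Dusp6 KO arrays, against 9.64, 9.69 and 9.90 in Dusp6 WT arrays, the opposite direction, and the mean of both gave 0.049 (adjusted p = 0.66). Phc3 also lost its call after repeated quantile normalization (adjusted p = 0.058) and without knockout replicate 1 or 3 or wild-type replicate 1 or 3 (adjusted p = 0.064, 0.12, 0.12 and 0.054).

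Variant forms of complex 1 hold Rybp or Yaf2 in place of a Cbx protein. Of their 13 measured genes, 4 fell and 2 rose, where 10.2% of all genes fell and 9.66% rose. Auts2, a subunit known to turn the complex towards activation, fell by 0.52 (adjusted p = 4.9e-05), and E2f6, a repressive E2F, fell by 0.38 (adjusted p = 0.0016). Auts2 was dim, with mean log2 signals of 8.09 in Dusp6 KO and 8.61 in Dusp6 WT arrays, beside array medians of 8.38 to 8.42. Rybp fell by 0.27 and its paralog Yaf2 rose by 0.21 (adjusted p = 0.017 and 0.0065). Yaf2 had log2 signals of 11.86, 11.86 and 11.92 in Dusp6 KO arrays, against 11.69, 11.69 and 11.63 in Dusp6 WT arrays, so the paralogs differed in opposite directions with no overlap in either. A second probe set for Rybp overlapped between the genotypes (-0.073). Kdm2b, which binds unmethylated CG dinucleotides, fell by 0.16 and the corepressor gene Bcor rose by 0.22 (adjusted p = 0.021 and 0.015).

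Leaving out 1 array ended some of these weaker calls. Rybp lost its call without knockout replicate 2 or 3 or wild-type replicate 1 (adjusted p = 0.071, 0.060 and 0.057), Bcor without knockout replicate 3 or wild-type replicate 1 or 3 (0.060, 0.059 and 0.053), and Kdm2b without knockout replicate 2 or wild-type replicate 1, 2 or 3 (0.062, 0.058, 0.074 and 0.058). Scmh1, Phc1, Pcgf2, Auts2, E2f6, Yaf2 and Phf19 passed in every alternative in which they were tested.

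Among other genes of complex 2, the core subunit genes Eed, Suz12, Rbbp4 and Rbbp7 differed by -0.081 to -0.022 and 0 of the 4 passed in limma. Of 5 accessory genes, 2 fell, where 10.2% of all genes fell. Phf19, a Tudor domain protein that guides the complex to chromatin, had log2 signals of 10.13, 10.11 and 10.10 in Dusp6 KO arrays, against 10.60, 10.57 and 10.59 in Dusp6 WT arrays. It fell by 0.47 ± 0.040 (SE, adjusted p = 2.5e-05). Jarid2, another accessory subunit, fell by 0.15 (adjusted p = 0.045), a call lost without any 1 of the 6 arrays (adjusted p = 0.056 to 0.15). Ezh1 and Ezh2, which were read by overlap and not tested, were higher beside accessory genes that were lower or did not pass. Read by overlap as well, the core gene Rbbp4 was lower in every knockout array (-0.081), as 18.4% of all genes were. Eed, Suz12 and Rbbp7 overlapped.

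**Figure D3:**
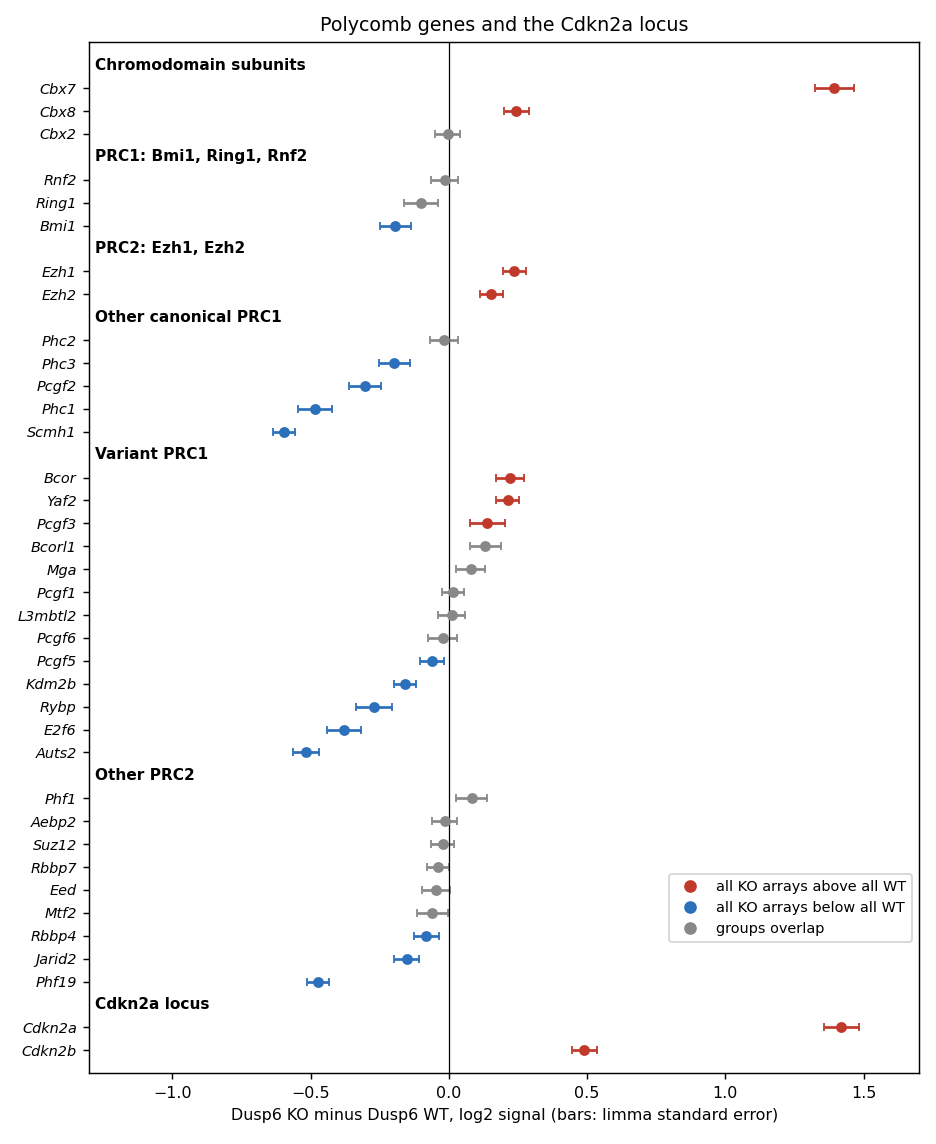
Log2 difference, Dusp6 KO minus Dusp6 WT, for the 8 genes described, 27 other Polycomb genes and the Cdkn2a locus, grouped by complex (points; bars are limma's standard error, colours give the overlap of the genotypes). Cbx7 (1.39) and Cdkn2a (1.42) lie far to the right. To the left of 0 without overlap lie 4 of 5 other canonical complex 1 genes, and 18.4% of all genes. The 4 include Phc3, whose second probe set, not plotted, differed by 0.29 in the other direction.

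Genes of enzymes and complexes that remove or oppose the Polycomb marks gave 1 rise and 1 fall among 18 measured genes, where 9.66% of all genes rose and 10.2% fell. The chromatin remodeller gene Smarca2 rose by 0.27 (adjusted p = 0.0035), and Kdm6b, a demethylase that removes the mark Ezh2 makes, fell by 0.18 (adjusted p = 0.023). Kdm6b did not pass when knockout replicate 2 or 3 or wild-type replicate 1 or 2 was left out (adjusted p = 0.052 to 0.087). Of 9 factors known to act on Cdkn2a outside Polycomb, 2 fell and 0 rose, beside 10.2% and 9.66% of all genes. The 2 that fell were the activator E2f1, given above, and the repressor E2f3 (-0.19, adjusted p = 0.017). E2f3 lost its call with the mean of its probe sets and without wild-type replicate 3 (adjusted p = 0.068 each).

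Hox genes are a classical set of Polycomb targets. Of 37 measured Hox cluster genes, 2 rose and 0 fell, where 9.66% of all genes rose and 10.2% fell, and 35 did not pass, with differences from -0.12 to 0.17. Their mean log2 signal was 7.65 to 7.76 in Dusp6 KO arrays and 7.67 to 7.71 in Dusp6 WT arrays, below the array medians, and whether these probe sets lie above background is not known here. Those that passed were Hoxd10 (0.17, adjusted p = 0.024) and Hoxa4 (0.13, adjusted p = 0.0496). Hoxa4 lost its call without any 1 array (adjusted p = 0.078 to 0.16), after repeated quantile normalization, with arrays centred on their medians and with limma's trend and robust options (0.052, 0.087 and 0.054), and Hoxd10 without knockout replicate 2 or 3 or wild-type replicate 1 or 3 (adjusted p = 0.058 to 0.099).

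The chromosomal surroundings of the chromodomain genes were also read, 5 measured genes to each side, after the values were seen. Next to Cbx7 on chromosome 15, Apobec3, a deaminase that restricts retroviruses, rose by 1.99 ± 0.067 (SE, adjusted p = 4.6e-08), with mean log2 signals of 13.33 in Dusp6 KO and 11.34 in Dusp6 WT arrays. Of the 10 neighbours of Cbx7, 3 rose and 1 fell, where 9.66% of all genes rose and 10.2% fell. The next gene on the other side, Pdgfb, a growth factor gene, differed by 0.040 (adjusted p = 0.67). Around Rnf2, which overlapped between the genotypes, 4 of 10 neighbours rose and 0 fell. Near Cbx8 and Cbx2 on chromosome 11, Gaa, a lysosomal glucosidase gene, rose by 0.33 and C1qtnf1 by 0.42 (adjusted p = 0.00061 and 0.0059). Of the 9 neighbours of Cbx8 other than Cbx2, 2 rose and 1 fell against the same background, and none passed 2-fold. Whether the difference in Cbx7 shares a source with that in Apobec3 was not tested.

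**Figure D4:**
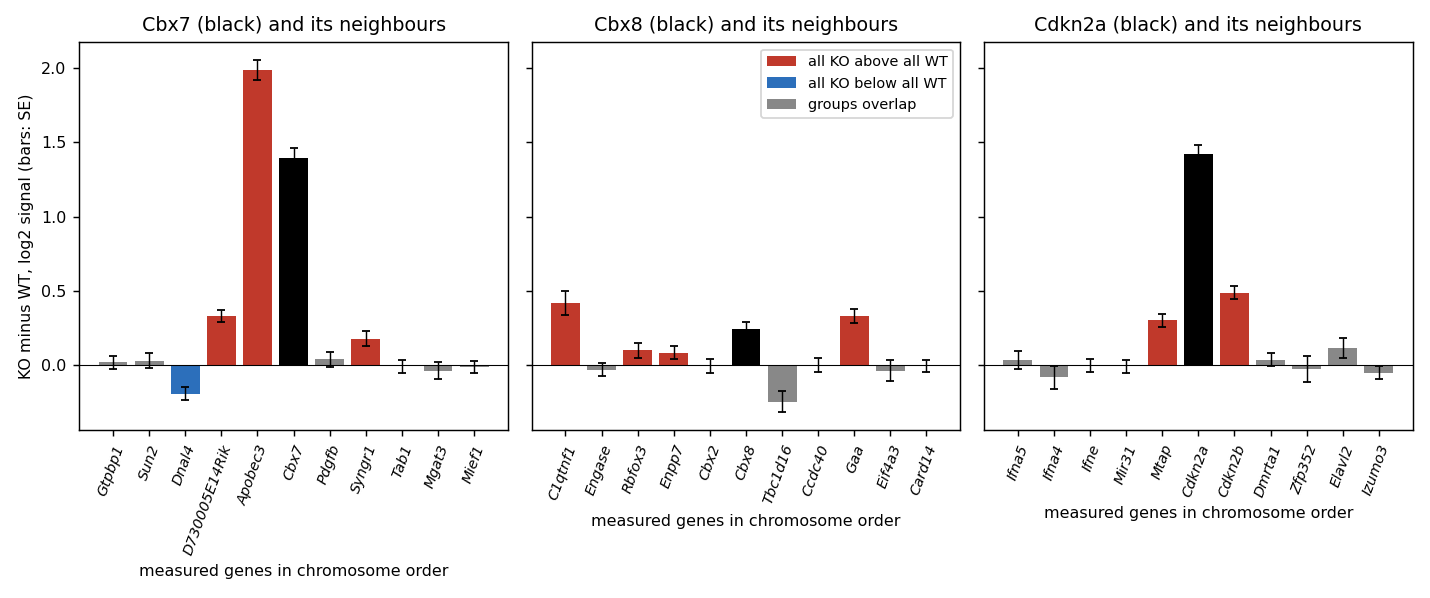
Log2 difference, Dusp6 KO minus Dusp6 WT, of Cbx7, Cbx8 and Cdkn2a (black) and of the 5 measured genes on each side of them in chromosome order (bars; error bars are limma's standard error, colours give the overlap of the genotypes). Apobec3 (1.99) stands beside Cbx7, and Mtap (0.30) and Cdkn2b (0.49) flank Cdkn2a.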

How the data were processed

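The authors deposited 1 log2 signal per probe set and array. RMA and Partek 6.5 are named in the submitters' processing notes, and neither their settings nor their order is given. The values ran from 3.23 to 14.83, from which the scale was inferred. Of 35556 probe sets, 21789 carried 1 gene symbol, 1621 several and 12146 were unnamed here. Genes with more than 1 probe set (999) took the one with the highest mean, leaving 19938 genes. They were tested with limma 3.58.1 under R 4.3.3 (eBayes after lmFit, with no term beside genotype, on 6 arrays), Benjamini-Hochberg adjusted over all genes, and called at an adjusted p under 0.05. Precision is set by the number of arrays; the standard errors of log2 differences had a median of 0.051. The fit was tested on simulated data with independent noise in every gene. The differences put in were larger than many of those called here, so the weaker calls were not covered. Genotype and replicate number came from the sample labels.

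The members and gene lists were chosen with earlier results of these data known. Named were the 9 genes, Dusp6, Cdkn2a, Cdkn2b, up to 4 called genes of each list with the largest differences (where none was called, the 2 of smallest p, and all of a list with 3 or fewer measured), and the 5 nearest profiles of the members with the largest positive and negative difference, without provisional symbols (Gm with a number, LOC at the start, Rik at the end). Pcgf2, Phc2, Phc3, Rybp, Yaf2, Kdm2b, Bcor, the core genes of complex 2 and chromosome neighbours were named after their values were seen. Alternatives were a repeated quantile normalization, centring on array medians, removal of dim genes, the mean of probe sets, limma's trend and robust options, the replicate number as a block, and each array left out. RefSeq tables of GRCm38.p6 gave gene order and promoter windows.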

Additional observations from a re-analysis of the deposited data

How the results depend on the processing

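Over the 13 alternatives, Cbx7 stayed between 1.34 and 1.45, Cdkn2a between 1.38 and 1.49 with an adjusted p under 0.05 throughout, and the median of the 8 genes between 0.063 and 0.097. Genes called numbered 3003 to 4600, against 3954. Calls among the 27 other Polycomb genes numbered 7 to 10 with 1 array left out, 1 to 2 higher and 6 to 8 lower, against 2 higher and 10 lower over all arrays; the lowest counts came without wild-type replicate 1. Of the 33 tested genes that the naming rule gave, which leaves out those named after their values were seen, 22 kept their direction and their side of the threshold in all alternatives run. Of those 33, the signs that reversed belonged to genes that had not passed: Klf1 gave -0.0025 after repeated quantile normalization and -0.052 to 0.066 with 1 array left out, Cbx3 -0.011 with the mean of its probe sets and -0.0098 to 0.034 with 1 array left out, Cbx5 -0.034 to 0.010, and Col1a1 -0.0033 to 0.067, each against values near 0. Among the other Polycomb genes Phc3, which had passed, reversed to 0.049 with the mean of its probe sets, and Phc2 ran from -0.066 to 0.0096; Aebp2, L3mbtl2, Pcgf1 and Pcgf6, which had not passed, also changed sign. Of the 8 genes, Cbx2 ran from -0.030 to 0.019 and Rnf2 from -0.042 to 0.027. The cause was not tested. Deviations of arrays with the same replicate number correlated at 0.0098, -0.12 and 0.053, and 1 of 3 knockout arrays correlated best with its own number, so the numbers were not taken as pairs; with the replicate block, 3445 genes and 10 of the 27 Polycomb genes were called, and Jarid2, Kdm2b, Hoxd10 and Hoxa4 had an adjusted p of 0.080, 0.059, 0.053 and 0.0997. Removing dim genes left Auts2, Bcorl1, Cd8b1 and others out of a fit. No background measurement was used, so whether dim probe sets lie above background is not known here.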
